A study of Mus musculus with 4 samples.

Results

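Neurexins, neuroligins and the leucine-rich repeat transmembrane (LRRTM) proteins hold the sides of a synapse together, and 9 of their genes were followed here: Nrxn2, Nrxn3, Nlgn1, Nlgn2, Nlgn3, Lrrtm1, Lrrtm2, Lrrtm3 and Lrrtm4. They were chosen by symbol from the 19465 genes of a deposited spatial count table, and all 9 were in it. The tissue was mouse brain from 4 untreated animals, 2 wild type and 2 heterozygous for Celsr3, a cadherin-family adhesion receptor that the study examined for its part in the striatum. The labels give no age, sex or strain and do not describe the Celsr3 allele. Coronal sections cut from formalin-fixed, paraffin-embedded brain at the level of the striatum were read with the Visium CytAssist assay, in which probes for each gene are captured on barcoded spots laid out as a grid. Each spot covers a small region and can take in several cells of different types.

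Neurexins sit on the presynaptic membrane, and alternative promoters and splicing give each gene many protein forms. Neuroligins and LRRTMs are postsynaptic membrane proteins that bind neurexins across the cleft. Neuroligin 1 is best known from excitatory synapses, neuroligin 2 from inhibitory synapses and neuroligin 3 from both kinds, while the LRRTMs are known from excitatory synapses, where they act on AMPA receptors. Secreted proteins such as cerebellins and neurexophilins also bind neurexins, and MDGA proteins bind neuroligins and block their contact with neurexins.

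The Lrrtm genes differed most in where they were high, so the bases before the start of transcription are shown for the 3 of them that could be read. RefSeq's promoter table (build GRCm38.p6) matched 6 of the 9 genes, and the 250 bases upstream of the start are printed 5′ to 3′ on the gene's strand. Capitals mark the E-box letters CANNTG, which read the same on both strands. Lrrtm1 lies at chr6:77242227-77242476 on the plus strand, Lrrtm3 at chr10:64090256-64090505 on the minus strand, and Lrrtm4 at chr6:80018627-80018876 on the plus strand, which is the first of its 2 starts in the table.
Lrrtm1: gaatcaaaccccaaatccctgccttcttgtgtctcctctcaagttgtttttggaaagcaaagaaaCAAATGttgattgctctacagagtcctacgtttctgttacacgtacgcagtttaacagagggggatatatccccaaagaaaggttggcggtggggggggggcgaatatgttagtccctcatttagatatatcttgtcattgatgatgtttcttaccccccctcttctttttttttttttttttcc
Lrrtm3: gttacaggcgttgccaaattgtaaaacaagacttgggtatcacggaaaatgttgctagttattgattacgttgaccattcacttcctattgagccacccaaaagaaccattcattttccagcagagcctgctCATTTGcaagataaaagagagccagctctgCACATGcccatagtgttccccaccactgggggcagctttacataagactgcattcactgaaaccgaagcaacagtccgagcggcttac
Lrrtm4: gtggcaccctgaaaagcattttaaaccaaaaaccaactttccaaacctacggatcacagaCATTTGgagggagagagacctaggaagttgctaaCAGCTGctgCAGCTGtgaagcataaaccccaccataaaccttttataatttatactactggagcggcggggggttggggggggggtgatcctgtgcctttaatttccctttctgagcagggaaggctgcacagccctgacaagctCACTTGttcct
The Lrrtm1 window held 1 such match, the Lrrtm3 window 2 and the Lrrtm4 window 4, and 66.2% of all 32851 windows of this length held at least 1. The letters TATAAA, again on either strand, occurred 2 times before Lrrtm4 and 0 times before Lrrtm1 and Lrrtm3, against 12.4% of all windows with a match. The GC box letters GGGCGG were in none of these 3 windows and in 32.7% of all windows, while the window of Nlgn2 held 3. The windows had a GC content of 42% for Lrrtm1, 46% for Lrrtm3 and 49.2% for Lrrtm4, and the median over all windows was 52.4%. By the same annotation, Lrrtm1 lies inside Ctnna2, Lrrtm2 inside Ctnna1 and Lrrtm3 inside Ctnna3, which encode alpha-catenins of cell junctions, and Lrrtm4 lies inside no other gene.

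The spot barcodes ended in 4 ways, which split the spots into barcode sets 1 to 4. The labels do not say which set belongs to which animal, so wild-type and heterozygous animals were not compared and no test over the sets was made. The table held 12602 spots, of which 12601 had at least 500 counts and were kept. The sets held 174761560, 109663162, 165184912 and 90752475 counts, with median counts per spot from 26444 to 52481, and 1613 of 4744 different barcodes occurred in all 4 sets. Celsr3 was at 31.73, 46.8, 26.01 and 47.15 CPM (counts of the gene per 1000000 counts) in sets 1 to 4, given as levels only. Each spot was placed in the area, out of 14, whose marker genes were highest in it, and 11986 spots (95.1%) were placed. The 9 genes were not among the markers. The leading genes went with most area names, such as Adora2a and Ppp1r1b for the striatal area, Cux2 and Lamp5 for cortical layer 2/3 and Tcf7l2 and Gbx2 for the thalamic area. The layer 5 area was less clear, since 15% of its spots had a near tie with another area and the hypothalamic gene Avp was among its leading genes. The layer 6 and lateral septal areas each had 1 of their own markers among their 10 leading genes. Of the areas, 12 had at least 30 spots in every set, the thalamic area in sets 1 and 4 with 152 and 307 spots, and the choroid plexus area in sets 1 and 3 with 69 and 85 spots.

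A level in CPM is the share of a gene in all counts of an area and set, times 1000000. A probe reads only part of a transcript, so levels of different genes are not on the same scale and each gene is compared with itself. A ratio sets the level in an area against all other spots of the same set, with an exact 95% interval that covers counting error only. A gene was called higher or lower in an area where the ratio was at least 1.5-fold in the same direction in every set that held the area. This is a rule of size and not a test. All 9 genes were among the 10144 genes averaging 10 CPM or more to which the rule was applied. Of the 126 combinations of gene and area, 4 were called higher and 19 lower, and 9 of the lower calls were in the choroid plexus area. Depending on the area, 0.227% to 9.36% of the 10144 genes were called higher and 0.739% to 27.7% lower. The member counts are to be read beside these shares. In such bulk spots, fewer cells that express a gene and less of its RNA per cell cannot be told apart.

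Each Lrrtm gene had its highest level in a different area, and no neurexin or neuroligin gene was called higher in any area. Nrxn2 came close in cortical layer 2/3, at ratios of 1.664, 1.449, 1.506 and 1.538 in sets 1 to 4. It missed the call there in set 2 alone and was past the fold in every set when set 2 was left out. Lrrtm1 led in the thalamic area, Lrrtm2 in cortical layer 6, Lrrtm3 in the striatum and Lrrtm4 in cortical layer 2/3. Nrxn3 and Nlgn1 were low in the thalamic area, and Nrxn2 was low in the striatum.

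**Figure D1:**
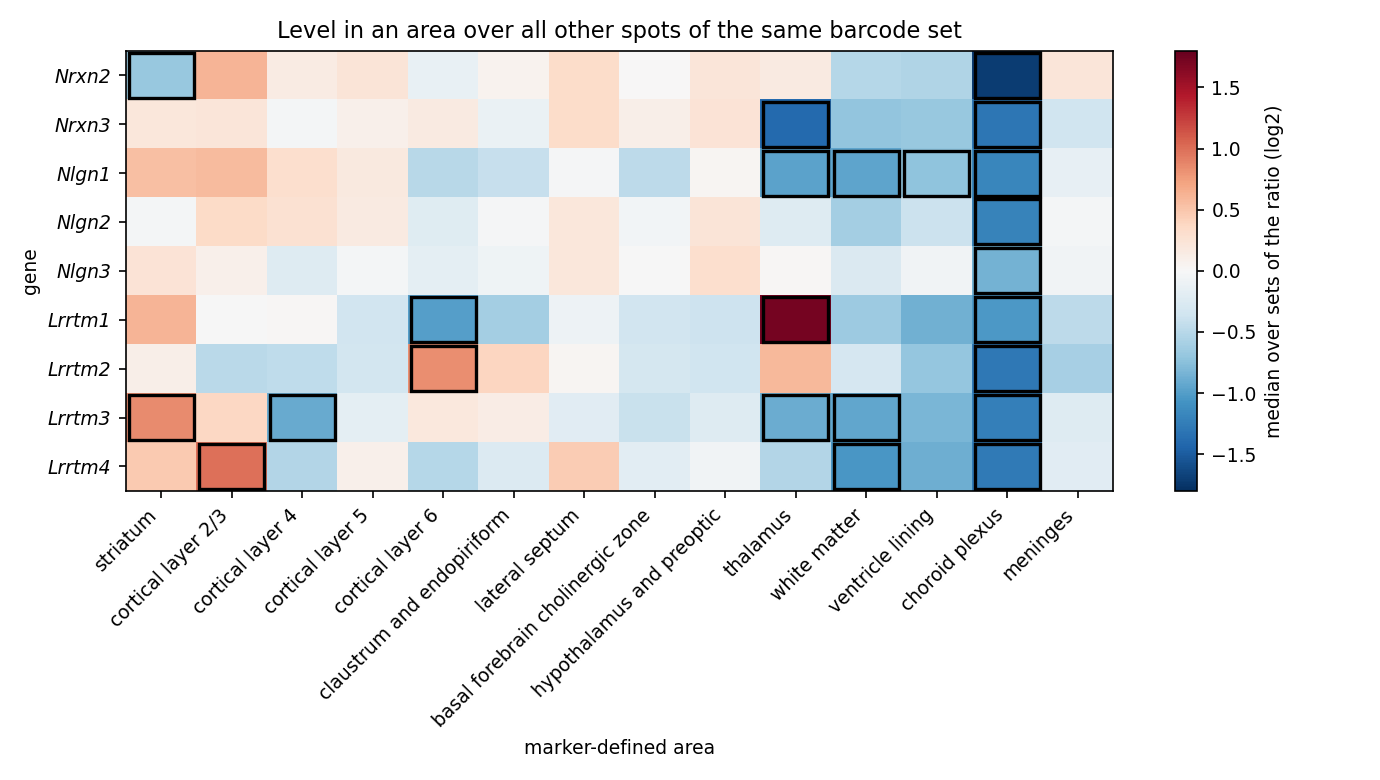
Rows are the 9 genes and columns the 14 marker-defined areas; colour is the log2 of the ratio of the level in the area to the level in all other spots of the same set, as a median over the sets that hold the area. Black frames mark the 23 combinations past 1.5-fold in the same direction in every set. The 4 framed red cells lie in 4 different columns and belong to the 4 Lrrtm genes, and all 9 cells of the choroid plexus column are framed and blue.

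Among the neurexin genes, Nrxn2 was at 340.7, 405, 365.8 and 411.1 CPM in the striatum of sets 1 to 4 and at 765.5, 873.1, 767.9 and 922.7 CPM in cortical layer 2/3. The levels of these areas did not overlap. Nrxn2 had its lowest median in the striatum among the 12 areas found in every set, and the levels there overlapped those of the next area, the white matter, at 354.8 to 460.7 CPM. The ratio of the striatum to other spots was 0.664 (0.650 to 0.677), 0.563 (0.551 to 0.575), 0.633 (0.621 to 0.645) and 0.608 (0.590 to 0.626). Nrxn2 was the only 1 of the 9 genes called lower there, and 12.4% of the 10144 genes were. The summed level of the pan-neuronal genes Rbfox3, Snap25, Syt1 and Stmn2, all 4 of 4 measured, was also lower in the striatum, at 2511 to 3026 CPM and a ratio of 0.506 to 0.573. Its part in the Nrxn2 ratio was not tested. This call of Nrxn2 was lost with other scalings and with equal weight for the other areas, at median ratios of 0.678 (TMM), 0.703 (RLE) and 0.648. Set directly against the spots of the 4 cortical layers, the striatum was lower in Nrxn2 by the rule (ratios of 0.584, 0.534, 0.605 and 0.534), as were 11.2% of genes.

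Nrxn3 was at 341.1, 372.4, 317.3 and 270 CPM in the same striatal spots. These values overlapped those of the cortical layers, at 338.3, 312.6, 313.3 and 281.5 CPM. The gene varied little over the grey matter: in each of the first 8 areas of its order, from the lateral septum at 307.5 to 403 CPM to cortical layer 4 at 253.6 to 314.4 CPM, the range overlapped that of the next area. The exception was the thalamic area, where Nrxn3 was at 107.9 CPM in set 1 and 103.5 CPM in set 4. The levels there lay below those of every other area of the same sets except the ventricle lining and choroid plexus of set 1, at 99.22 and 100.5 CPM. The thalamic ratio was 0.365 (0.346 to 0.385) and 0.393 (0.370 to 0.417).

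The neurexin genes had different balances by area, measured as the ratio of Nrxn2 to Nrxn3 counts. This ratio was 5.24-fold (4.92 to 5.58) higher in the thalamic area than in the striatum of set 1 and 4.28-fold (3.96 to 4.62) higher in set 4. Between cortical layer 2/3 and the striatum it differed by 2.15-, 2.49-, 2.05- and 2.04-fold in sets 1 to 4, in the same direction in all of them. These intervals are for counting error, and areas of a set are not replicates.

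Among the neuroligin genes, Nlgn1 and Nlgn2 were highest in cortical layer 2/3. Nlgn1, whose protein is known from excitatory synapses, was at 98.41, 96.83, 86.62 and 100.7 CPM there and at 95.45, 89.15, 85.51 and 100.3 CPM in the striatum. These areas could not be told apart by their spread. In the thalamic area Nlgn1 was at 34.16 and 37.46 CPM, below every cortical, striatal, septal and hypothalamic value. It was called lower in the thalamic area, at ratios of 0.514 and 0.507, and in the white matter, at 0.516, 0.574, 0.509 and 0.521.

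Nrxn3, Nlgn1 and Lrrtm3 were the 3 genes called lower in the thalamic area, where 9.38% of all genes were. The genes of excitatory neurons Slc17a6, Slc17a7 and Neurod6, all 3 of 3 measured, summed to 702.7 to 813.6 CPM in the thalamic area, at ratios of 0.526 to 0.604. This sum does not hold for each gene, since Slc17a6 was among the 10 leading genes of the thalamic area. Those of inhibitory neurons, Gad1, Gad2 and Slc32a1, also 3 of 3, summed to 116.1 to 124 CPM, at ratios of 0.168 to 0.207, while the pan-neuronal list had ratios of 1.03 to 1.08. The part of these differences in the thalamic values was not tested.

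Nlgn2, whose protein organises inhibitory synapses, was at 166.9, 177.2, 138.8 and 196.4 CPM in cortical layer 2/3 and at 127.1, 151.2, 104 and 151.9 CPM in the striatum. The values of these areas overlapped. Nlgn2 was called neither higher nor lower in any area but the choroid plexus. In the white matter it was at 85.02, 96.3, 84.27 and 102.9 CPM, and within each set this lay below the other areas found in every set, except the ventricle lining of set 1. Sets 1 and 3 missed the fold there, at ratios of 0.671 and 0.716. The count ratio of Nlgn1 to Nlgn2 was 2.31-fold (2.06 to 2.60) and 2.34-fold (2.05 to 2.68) higher in the striatum than in the thalamic area of sets 1 and 4.

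Nlgn3 was the flattest of the 9 genes. Its median level ran from 105.5 CPM in the hypothalamic and preoptic area to 49.88 CPM in the choroid plexus, a range of 2.12-fold, against 3.16- to 6.8-fold for the other genes. Without the choroid plexus the lowest was cortical layer 4, at 78.52, 71.85, 76.18 and 75.04 CPM, and the highest hypothalamic values, at 110.1, 103.7, 105.2 and 105.8 CPM, did not overlap these.

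Lrrtm1 was at 203.8 CPM in the thalamic area of set 1 and at 294 CPM in that of set 4. No value of any other area reached these, and the highest was 128.3 CPM, in the striatum of set 4. The ratio to other spots was 3.37 (3.22 to 3.51) and 3.22 (3.09 to 3.35), and 1 of the 9 genes was called higher there with 5.23% of all genes. Against the 4 cortical layers the thalamic area was 3.62-fold (3.44 to 3.81) and 3.51-fold (3.33 to 3.71) higher, and here too Lrrtm1 was the 1 gene of the 9 called higher, with 8.43% of all genes. Lower in that comparison were 4 of the 9, Nrxn3, Nlgn1, Lrrtm3 and Lrrtm4, with 9.68% of all genes. Sets 2 and 3 held 1 and 9 such spots, under the minimum of 30, and were not used.

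The next highest area for Lrrtm1 was the striatum, at 91.61, 124.6, 112.3 and 128.3 CPM. In each set this lay above every cortical layer, and the ratio to the 4 layers was 1.627, 1.603, 1.642 and 1.534. Lrrtm1 was the 1 gene of the 9 called higher in the striatum by this comparison, with 7.12% of all genes. Set against all other spots, the striatal ratio was 1.37, 1.69, 1.69 and 1.13. It was lower in sets 1 and 4, whose other spots include the thalamic area, and the part of that area in the ratio was not tested. In the white matter Lrrtm1 was at 49.5, 53.23, 45.82 and 107.3 CPM, with set 4 far above the others. Within the cortex it was lowest in layer 6, at 37.35, 45.69, 45.62 and 58.59 CPM and ratios of 0.485 to 0.571. This was the 1 gene of the 9 called lower in layer 6, against 6.8% of all genes, and with equal weight for the other areas the ratio of 1 set was 0.681 and the call was lost.

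Lrrtm2 was high in cortical layer 6, where Lrrtm1 was called lower. It was at 143.4, 163.6, 161.8 and 159.4 CPM in layer 6 and at 64.42, 78.21, 59.55 and 73.46 CPM in layer 2/3. Every layer 6 value lay above the values of all other areas, the thalamic area at 137.1 and 122.1 CPM and the claustrum area at 110.7 to 138.7 CPM included. The layer 6 ratio was 1.78 (1.71 to 1.86), 1.65 (1.57 to 1.73), 2.02 (1.94 to 2.10) and 1.79 (1.69 to 1.91), and Lrrtm2 was the 1 gene of the 9 called higher, with 2.66% of all genes. The excitatory genes were also high in layer 6, at a summed 3213 to 3686 CPM and ratios of 2.71 to 3.67, and their part in the Lrrtm2 level was not tested.

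Lrrtm3 was at 128.6, 98.94, 101.4 and 92.73 CPM in the striatum. Next came cortical layer 2/3 at 115.5, 80.11, 83.53 and 67.66 CPM, and the ranges of these areas overlapped, although the striatum was above layer 2/3 within each set. The striatal ratio was 1.865 (1.797 to 1.934), 1.706 (1.625 to 1.791), 1.746 (1.677 to 1.818) and 1.927 (1.799 to 2.063). Lrrtm3 was the 1 gene of the 9 called higher in the striatum, with 6.08% of all genes. Against the 4 cortical layers alone its ratio was 1.498, 1.487, 1.497 and 1.666, just below the fold in sets 1 to 3, so it was not called there. The striatum had little of the excitatory genes, with a summed 52.35 to 94.04 CPM and ratios of 0.0286 to 0.0646, and more of the inhibitory genes, at ratios of 1.38 to 1.7. The part of this in the Lrrtm3 level was not tested.

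Lrrtm3 also had a dip in the cortex. It was at 45.59, 32.63, 42.94 and 28.07 CPM in layer 4, below layers 2/3, 5 and 6 in every set. It was the 1 gene of the 9 called lower in layer 4, against 6.56% of all genes, and the call was lost with RLE scaling, with clusters in place of markers and with equal weight for the other areas, at median ratios of 0.595, 0.744 and 0.590. In the thalamic area Lrrtm3 was at 46.02 and 29.49 CPM, at ratios of 0.559 and 0.517. The count ratio of Lrrtm1 to Lrrtm3 was 6.21-fold (5.62 to 6.87) and 7.2-fold (6.27 to 8.28) higher in the thalamic area than in the striatum.

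Lrrtm4 was at 124.8, 126.9, 112.3 and 132.8 CPM in cortical layer 2/3. The range overlapped that of the lateral septum, at 98.39, 98.01, 44.79 and 114.8 CPM, and no other area. The septal value of set 3 stood far below those of the other sets. The septal area was uneven in its cell classes over the sets. Its excitatory genes summed to 637.3 to 1465 CPM, at ratios of 0.447 to 1.14, and its inhibitory genes had ratios of 1.23 to 1.77. Their part in the septal values was not tested. The layer 2/3 ratio was 2.09 (1.98 to 2.20), 1.73 (1.65 to 1.82), 1.90 (1.81 to 2.00) and 2.18 (2.06 to 2.30), and Lrrtm4 was the 1 gene of the 9 called higher, with 3.48% of all genes. The excitatory genes were also high in layer 2/3, at a summed 2280 to 2611 CPM and ratios of 1.79 to 2.2, and their part in the Lrrtm4 level was not tested. With clusters in place of markers, the lowest set was at 1.44 and the call was lost.

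**Figure D2:**
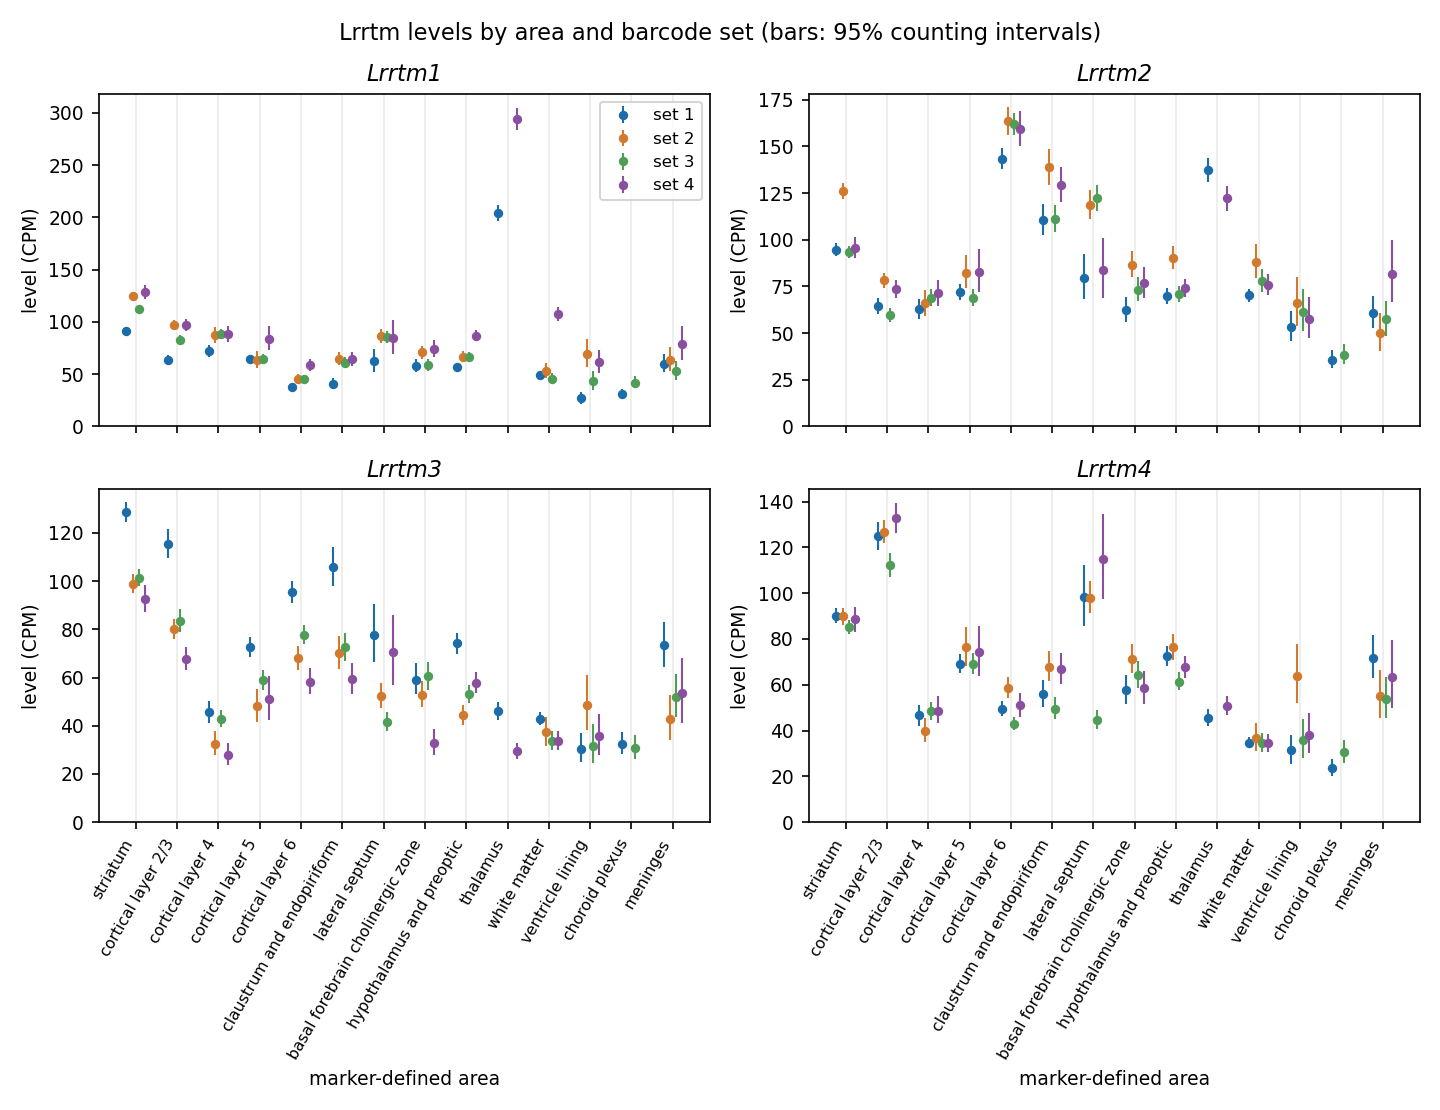
Each panel is a Lrrtm gene, with its level in CPM by marker-defined area, 1 point per barcode set and bars for the exact 95% Poisson interval of the count. Lrrtm1 stands at 203.8 and 294 CPM in the thalamic area, Lrrtm2 at 143.4 to 163.6 CPM in layer 6, Lrrtm3 at 92.73 to 128.6 CPM in the striatum and Lrrtm4 at 112.3 to 132.8 CPM in layer 2/3.

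Set side by side, the areas of cortical layers 2/3 and 6 separated these genes in opposite directions. Layer 2/3 over layer 6 was called higher for 3 of the 9 genes, Nlgn1 (2.00, 1.99, 1.84 and 1.84), Lrrtm1 (1.71, 2.13, 1.82 and 1.66) and Lrrtm4 (2.52, 2.16, 2.61 and 2.60), with 4.3% of all genes. It was called lower for 1, Lrrtm2 (0.449, 0.478, 0.368 and 0.461), with 3.93% of all genes. Nrxn2 (1.64, 1.48, 1.59 and 1.55) missed the fold in set 2. Nrxn3 did not differ beyond its counting interval in sets 2 and 3, at 1.04 (0.995 to 1.08) and 0.986 (0.950 to 1.02), while the intervals of sets 1 and 4 lay just above 1, at 1.044 (1.005 to 1.085) and 1.071 (1.014 to 1.131).

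The count ratio of Lrrtm4 to Lrrtm2 in layer 2/3 was 5.6-fold (5 to 6.27), 4.52-fold (4.05 to 5.06), 7.1-fold (6.36 to 7.93) and 5.65-fold (4.90 to 6.51) higher than in layer 6. From layer 2/3 to layer 4, Lrrtm3 and Lrrtm4 were the 2 genes of the 9 called lower, with 2.65% of all genes. Lrrtm3 had ratios of 0.395, 0.407, 0.514 and 0.415 in that comparison. Lrrtm4 had ratios of 0.374, 0.315, 0.431 and 0.367. These 4 direct comparisons of areas (layer 2/3 with layer 6, layer 4 with layer 2/3, and the striatum and the thalamic area with the cortical layers) share spots and are not independent.

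**Figure D3:**
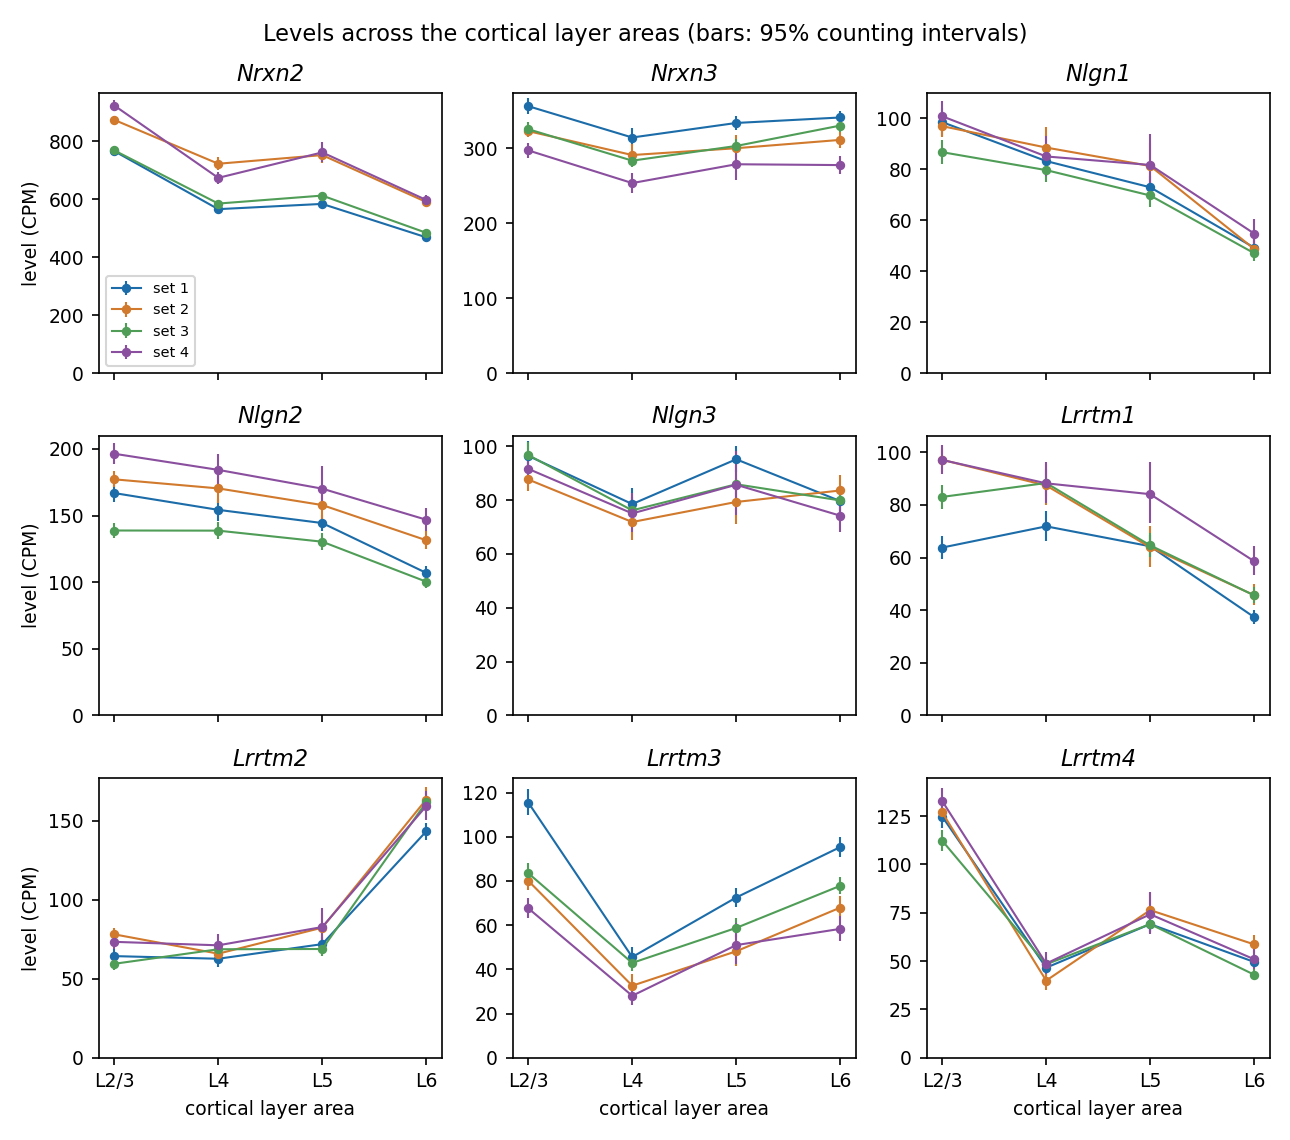
Each panel is a gene, with its level in CPM in the areas of cortical layers 2/3, 4, 5 and 6, 1 line per barcode set and bars for the exact 95% Poisson interval. Lrrtm2 runs up to 143.4 to 163.6 CPM in layer 6 in every set, and Lrrtm3 dips in layer 4. Lrrtm4 is low in both layer 4, at 39.94 to 48.77 CPM, and layer 6, at 43 to 58.68 CPM. Nlgn1 ends at 47.01 to 54.72 CPM in layer 6.

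In the choroid plexus area, an epithelium that makes cerebrospinal fluid, all 9 genes were called lower, and so were 27.7% of all genes. The smallest difference was that of Nlgn3, at 43.48 and 56.28 CPM and ratios of 0.478 and 0.629, and its call was lost with RLE scaling. The largest was that of Nrxn2, at 121.9 and 198.5 CPM and ratios of 0.246 and 0.364. The size of these differences depended on how the area was drawn, and all 9 genes were lower still with clusters in place of markers. The median log2 ratio then went from -0.854 to -1.58 for Nlgn3 and from -1.71 to -2.68 for Nrxn2. In the white matter 3 of the 9 genes were called lower, Nlgn1, Lrrtm3 and Lrrtm4, with 8.72% of all genes. Lrrtm4 was at 34.69, 36.78, 34.71 and 34.47 CPM there, a narrow range that lay below every grey matter value of the gene. Lrrtm3 lost its white matter call when markers were standardised within each set, where the ratio of a set was 0.743.

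In the ventricle lining 1 gene was called lower, Nlgn1, at 28.05, 48.62, 39.83 and 43.29 CPM, with 5.86% of all genes. This call was lost with markers standardised within each set and with equal weight for the other areas. The pan-neuronal list had ratios of 0.476 to 0.584 in the white matter, 0.287 to 0.388 in the ventricle lining and 0.212 to 0.217 in the choroid plexus, and its part in these values was not tested.

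Other genes of the same pathway were taken as lists, 46 genes in all, of which 45 were in the table and 43 passed the level filter. Ligands that bind neurexins were low in the striatum: 8 of 11 were called lower and 0 higher, and the median log2 ratio was -1.56 against -0.0786 over all genes, of which 12.4% were called lower. The excitatory marker genes had ratios of 0.0286 to 0.0646 and the pan-neuronal genes ratios of 0.506 to 0.573 there, and their part in the ligand levels was not tested. The 8 ligands called lower in the striatum were the cerebellins Cbln1 (0.0593), Cbln2 (0.0468) and Cbln4 (0.168), the neurexophilins Nxph1 (0.452) and Nxph3 (0.212), Igsf21 (0.553), Tafa1 (0.0377) and Tafa2 (0.346), each given as a median ratio. In the thalamic area Cbln1 (9.61) and Nxph1 (3.36) were called higher and 3 ligands lower, Nxph3, Nxph4 and Tafa1, against 5.23% and 9.38% of all genes. Layer 6 had Nxph3 (7.49) and Igsf21 (3.34) called higher and 3 lower, Cbln4, Tafa1 and Tafa2, against 2.66% and 6.8%. Layer 2/3 had Tafa1 (3.88), Tafa2 (2.34) and Cbln2 (2.01) called higher and 4 lower, Cbln1, Nxph3, Nxph4 and Igsf21, against 3.48% and 6.72%.

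Of the neuroligin-blocking genes, Mdga1 was called lower in the striatum (0.462), layer 4 (0.375) and layer 6 (0.232), against 12.4%, 6.56% and 6.8% of all genes. It was called higher in the hypothalamic and preoptic area (2.02) and the basal forebrain cholinergic zone (2.61), against 5.94% and 1.7% of all genes. Mdga2 was called in none of these areas. Of 9 postsynaptic scaffold genes tested, 3 were called higher in the striatum, among them Shank3 (2.23) and Dlg2 (1.81), and 1 lower, Shank1 (0.192), against 6.08% and 12.4% of all genes. Shank proteins link receptor complexes to actin, and Dlg2 encodes a scaffold that neuroligins bind. In the white matter 6 of the 9 postsynaptic scaffold genes tested were called lower and 0 higher, against 8.72% and 7.07% of all genes. The pan-neuronal genes had ratios of 0.476 to 0.584 there, and their part in these calls was not tested. Of 6 presynaptic scaffold genes, Apba1 (0.493) and Apba2 (0.404) were called lower in the striatum, against 12.4% of all genes. The KH-domain proteins of the Khdrbs genes regulate neurexin splicing: Khdrbs2 (0.415) and Khdrbs3 (0.396) were called lower in the striatum, 2 of 3 such genes against 12.4% of all genes. Khdrbs3 was called higher in layer 6 (2.32) and Khdrbs2 higher in the thalamic area (1.53), against 2.66% and 5.23% of all genes. Splice forms of the neurexins were not measured.

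Of 12 other synaptic organizers tested, 3 were called lower in the striatum, Slitrk1 (0.316), Ptprd (0.532) and Ptprs (0.574), against 12.4% of all genes. In layer 2/3, 3 were called higher and 0 lower, Slitrk1 (1.82), Il1rapl1 (1.83) and Lrrc4 (1.79), against 3.48% and 6.72%. The thalamic area had 1 called higher, Slitrk3 (1.71), and 5 lower, among them Lrrc4 (0.353) and Lrrc4c (0.335), against 5.23% and 9.38%.

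The alpha-catenin genes that hold a Lrrtm gene were read in the same areas. Ctnna3, which holds Lrrtm3, was called higher in the white matter, at a median ratio of 6.12 (5.34 to 8.22 over the sets), and Ctnna1, which holds Lrrtm2, in the white matter (1.66) and the choroid plexus (2.65). Both were also called higher in the ventricle lining, Ctnna1 at 2.04 and Ctnna3 at 3.08. Of all genes, 7.07% were called higher in the white matter, 9.36% in the choroid plexus and 8.01% in the ventricle lining. Ctnna3 was called lower in layer 2/3 (0.141), layer 4 (0.393), the claustrum area (0.544) and the thalamic area (0.566), against 6.72%, 6.56%, 3.8% and 9.38% of all genes. Ctnna2, which holds Lrrtm1, was called lower in the choroid plexus (0.435), as were Lrrtm1 and 27.7% of all genes. Ctnna2 had ratios of 0.84 to 0.973 in the thalamic area. Over 48 points, the 12 areas of the 4 sets with each set centred, the Pearson correlation was -0.541 for Lrrtm3 with Ctnna3, -0.452 for Lrrtm2 with Ctnna1 and 0.00103 for Lrrtm1 with Ctnna2. Points of a set share a library and areas recur in every set, so these values describe the sections and carry no test.

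On the same 48 points the closest members were Nlgn1 and Nlgn2 (r = 0.823), Nlgn2 and Nrxn3 (0.808) and Nlgn1 and Lrrtm1 (0.767). Lrrtm3 and Lrrtm4 were at 0.749. With the thalamic area included, over 26 points of sets 1 and 4, these pairs were at 0.861, 0.732, 0.0657 and 0.773 in the same order. On the 48 points Lrrtm2 was the member least like the rest, with values from -0.145 with Nrxn2 to 0.486 with Lrrtm3. Among all genes that passed the level filter, the 3 most alike were Abr (0.933), B4galt5 (0.888) and 1700025G04Rik (0.88) for Nrxn2 and Otub1 (0.884), Rbfox2 (0.865) and Noct (0.856) for Nrxn3. For the neuroligins they were Slc12a5 (0.87), Add2 (0.859) and Slitrk2 (0.856) for Nlgn1, Lrfn5 (0.916), Slc12a5 (0.904) and Cnnm1 (0.894) for Nlgn2, and Ccdc106 (0.872), Adgrl3 (0.87) and Grid1 (0.854) for Nlgn3. For the Lrrtm genes those named here were Slc9a5 (0.845), Lrp12 (0.812) and Grm7 (0.806) for Lrrtm1, Cd47 (0.846), Ogfrl1 (0.78) and Grik3 (0.772) for Lrrtm2, Rapgef2 (0.871) and Rasgef1a (0.871) for Lrrtm3, and Ajap1 (0.824), Ksr2 (0.794) and Sh3glb2 (0.79) for Lrrtm4. On the 26 points with the thalamic area, the gene most like Lrrtm1 was Cit (0.915).

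Between the barcode sets, over all spots, Lrrtm1 ranged most, at 71.34, 85.43, 75.87 and 115.8 CPM. The highest set was 1.62-fold the lowest, and Lrrtm1 was the 1 gene of the 9 at 1.5-fold or more, against 40.4% of all genes. Set 4, the highest, has the larger thalamic area, and the part of that area in the range was not tested. With each of the 12 shared areas, which leave out the thalamic area, given equal weight, the range was 1.48-fold and 0 of the 9 genes reached 1.5-fold. Within these 12 areas Lrrtm1 was highest in set 4 in 7 and lowest in set 1 in 9. The median range of the 9 genes was 1.34-fold, and that of all 10144 genes was 1.42-fold.

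Lrrtm3 ran the other way, at 79.67, 67.33, 67.03 and 53.74 CPM, a range of 1.48-fold that became 1.76-fold with TMM and 1.72-fold with RLE scaling, while that of Lrrtm1 became 1.37-fold and 1.40-fold. In 10 of the 12 shared areas Lrrtm3 was highest in set 1, and in 7 it was lowest in set 4. Nlgn2 was at 120.9, 153.6, 116.1 and 155.9 CPM and was highest in set 4 in 10 areas and lowest in set 3 in 11. Nrxn2 was lowest in set 1 in 10 of the 12 areas. The sets differ in depth and in the areas they hold, sets 2 and 4 having the fewest counts, and the part of this in these differences was not tested. Animal and genotype are not known for any set, so their part cannot be told apart from that of depth and areas. Nlgn3 was nearly level, at 89.17, 92.86, 88.49 and 87.77 CPM.

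**Figure D4:**
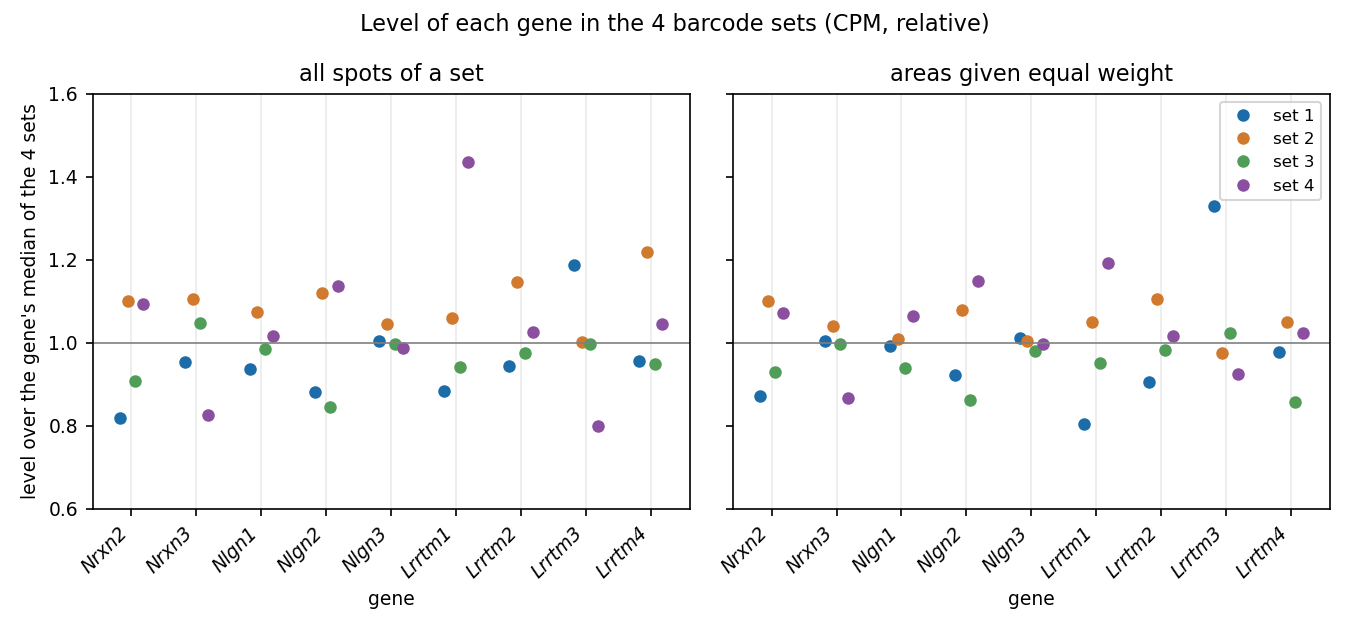
Each gene's level in the 4 barcode sets, over the median of the gene's 4 values; the left panel uses all spots of a set and the right panel gives the 12 areas found in every set equal weight. Lrrtm1 spans 1.62-fold on the left and 1.48-fold on the right, and Nlgn3 spans 1.06-fold on the left.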

How the data were processed

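The submitters' processing notes name Space Ranger and Seurat, while the probe set, the build and how spots were filtered are not given in the sources used here. The authors deposited raw counts of genes by spots in a single table. The members and lists were chosen with earlier results of these data known. Spots needed at least 500 counts. Counts were scaled to 10000 per spot, log-transformed and standardised over all spots (values capped at 10), and a spot joined the area whose markers had the highest mean, at 0.5 or more. Of the 82 markers written down for the 14 areas, Etv1 was not analysed here. Areas with under 30 spots in a set were not used. Counts were then summed per area and set. Levels have exact Poisson intervals, ratios exact conditional binomial intervals and ratios of count ratios normal intervals on the log scale, at 95% (scipy 1.17.1, numpy 2.4.6, pandas 2.3.3). These intervals cover counting error only and say nothing of the spread between animals. The rule for named genes took the 9 members, list genes past the fold in the areas described, and the 3 genes most alike by Pearson correlation of log2(CPM + 1). A few genes that the rule takes are not reported here. Alternatives were TMM and RLE scaling (edgeR 4.0.16), Leiden clusters made without the members (2000 variable genes, 30 components, 15 neighbours, resolution 0.8, leidenalg 0.10.2), spots leading by at least 0.5, markers standardised within each set, a minimum of 5000 counts per spot, a fold of 2, no level filter, counts thinned to the smallest set, and each set left out. Equal weight for the other areas, the direct comparisons of areas, likeness with the thalamic area and the levels of the host genes were added after the data were seen. An edgeR test of genotype was planned and was not run, since no set has a known genotype. The steps were tested on simulated data.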

Additional observations from a re-analysis of the deposited data

How the results depend on the processing

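The 23 combinations of gene and area past the fold kept their direction in every alternative that gave a value. The number still past 1.5-fold was 22 with TMM, 20 with RLE and 20 of 22 with clusters (which gave the ventricle lining no value). It was 23 with clear-lead spots, 21 with markers standardised within each set, 23 with at least 5000 counts per spot and 19 with equal weight for the other areas. It stayed at 23 without each set in turn. The rule fixed this last result, since leaving out a set cannot undo a call that holds in every set. These numbers leave out calls that an alternative gained. All calls, higher and lower, numbered 4 and 19 in the main setting, 5 and 22 with TMM and 5 and 19 with RLE. They numbered 3 and 17 with clusters, 4 and 21 with clear-lead spots and 5 and 15 with equal weight. Without sets 1 to 4 in turn they numbered 4 and 19, 5 and 23, 4 and 20, and 5 and 21. At a fold of 2, 1 combination was higher and 7 lower. Genes past 1.5-fold in at least 1 area numbered 5626, 13118 with no level filter and 3305 at 2-fold. No gene of the 9 ranged 1.5-fold between sets with equal area weight (0), against 1 over all spots. TMM and RLE shifted the median log2 ratio of all genes by 0.131 and 0.178 in the striatum, by 0.137 and 0.193 in layer 6, by 0.113 and 0.152 in layer 2/3, and by -0.277 and -0.231 in the ventricle lining. The causes were not tested. Thalamic values rest on 2 sets. No paired analysis was possible because no spot could be matched to a replicate in the labels.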
